A study of Mus musculus with 12 samples.

Results

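Collagen VIII is encoded by Col8a1 and Col8a2, 2 of the 56748 genes in the deposited count table and 2 of the 16465 genes with enough counts to be tested. They were taken by gene symbol, having been picked because earlier work on these counts had shown Col8a1 to rise strongly on ACLP. Their own levels and fold changes are therefore given as a description, with standard errors but without a test. RNA was sequenced from 10T1/2 cells, an established mouse mesenchymal progenitor line, after 18 h on polyacrylamide hydrogels of 12 kPa in 3 groups of 4 libraries. In the col1 group the gel carried type I collagen at 0.05 mg/ml and nothing else. In the col1-ACLP group the collagen was polymerized together with 30 nM recombinant mouse ACLP (aortic carboxypeptidase-like protein), a myc-His-tagged protein purified from AD293 cells. The col1-ACLP+SB group had the same matrix and also received 5 µM SB431542, an inhibitor of the ALK5 kinase of the TGFβ receptor. All groups were starved overnight in 0.5% serum and kept in suspension for 1 h before seeding. No group received SB431542 on collagen without ACLP, so the inhibitor was seen only in the presence of ACLP. The cells were of 1 line, and the study counts the 4 libraries of a group as biological replicates. In bulk RNA, more cells that express a gene and more RNA per cell cannot be told apart.

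Collagen VIII is a short-chain, non-fibrillar collagen. Each of its chains has a short triple helix between non-collagenous ends, of which the carboxy-terminal one is a C1q-like domain that starts trimer assembly. The trimers, of α1(VIII), α2(VIII) or both chains, join into hexagonal networks, best known from Descemet's membrane of the cornea and from the wall of blood vessels, where smooth muscle cells and fibroblasts make more of it after injury. Its closest relative is collagen X, the network collagen of growth-plate cartilage.

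Col8a1 (ENSMUSG00000068196) lies on chromosome 16 from 57444621 to 57575100 on the minus strand of GRCm39, and Col8a2 (ENSMUSG00000056174) on chromosome 4 from 126180586 to 126208123 on the plus strand. The main GENCODE transcript of each gene has 4 exons, 2 of them coding, and exon 4 holds most of the protein: 85.3% of 2232 coding bases in Col8a1 and 91.4% of 2097 coding bases in Col8a2. A further 2656 bases of Col8a1 and 2035 bases of Col8a2 follow the coding sequence. The longest run of bases that both transcripts hold is 15 bases, against reads of 150 bases, and no other gene of the table overlaps either locus. Because the chains moved in the same direction, the 250 bases upstream of each GENCODE start (57575100 for Col8a1, as in the table, and 126180559 for Col8a2, which is 27 bases upstream of the start in the table) are shown, 5′ to 3′ on the gene's own strand, with matches to the motifs CAGACA (the SMAD-binding element) and GGGCGG (the GC box) in capitals, also where the match is on the other strand.

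Col8a1, chr16:57575101-57575350, minus strand of GRCm39: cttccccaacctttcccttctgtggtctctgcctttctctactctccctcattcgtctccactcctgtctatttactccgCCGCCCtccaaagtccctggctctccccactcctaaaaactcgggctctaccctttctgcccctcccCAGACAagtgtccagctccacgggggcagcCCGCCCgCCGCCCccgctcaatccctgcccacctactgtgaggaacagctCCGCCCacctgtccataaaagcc

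Col8a2, chr4:126180309-126180558, plus strand of GRCm39: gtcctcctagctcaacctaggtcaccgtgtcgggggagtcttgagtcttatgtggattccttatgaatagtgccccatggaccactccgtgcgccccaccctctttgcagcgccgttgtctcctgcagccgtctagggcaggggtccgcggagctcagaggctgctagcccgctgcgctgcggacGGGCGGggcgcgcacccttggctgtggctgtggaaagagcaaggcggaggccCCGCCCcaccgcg

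The Col8a1 window held 1 CAGACA, with its first base 103 bases upstream of the GENCODE start, and 4 GC boxes on the other strand, at 23, 66, 73 and 170 bases. The Col8a2 window held no CAGACA and 2 GC boxes, at 65 bases on its own strand and at 13 bases on the other. Among the same windows of 16382 tested genes, 15.6% held CAGACA and 35.7% held GGGCGG on either strand. Neither window held GGAATG (a TEAD motif, found in 12.0% of windows), TGANTCA (the AP-1 motif, in 5.29%) or a CArG box (the SRF motif, in 1.27%), and none of the matches overlapped another. The G and C content was 60.8% in Col8a1 and 66.4% in Col8a2, higher than in 75.7% and 87.6% of windows. These matches are descriptions of the letters, not evidence of binding.

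Library totals ran from 29246154 to 52201922 counts, and of the 56748 genes 29792 had a count in any library. On principal components of log2 CPM (counts scaled to library size with TMM factors), col1 replicate 2 lay apart from the other col1 libraries. It had a count in 18556 genes, against 20931 to 21285 in the others. Without it, the log2 fold changes on col1-ACLP and col1-ACLP+SB against col1 were 3.31 and 2.65 for Col8a1 (3.25 and 2.59 with it). For Col8a2 they were 0.83 and 0.61 (0.90 and 0.69 with it). Mesenchymal markers were all present (10 of 10 tested), with a summed level of 38643 to 41688, 44737 to 52341 and 42322 to 46203 CPM in the order col1, col1-ACLP, col1-ACLP+SB. On col1-ACLP against col1, 2 of the 10 were higher (the matrix genes Fn1 and Col1a2, against 9.52% of all tested genes) and 5 lower (against 8.41%: Pdgfra at a log2 fold change of -0.76, S100a4 at -0.50, Twist1 at -0.43, Prrx1 at -0.16 and Pdgfrb at -0.15), with a median of -0.12. Endothelial markers (2 of 8 tested) summed to 4.87 to 9.29, 8.65 to 11.3 and 4.69 to 7.49 CPM in the same order, epithelial markers (1 of 6) to 1.88 to 2.60, 2.38 to 3.84 and 2.05 to 3.66 CPM, and leukocyte markers (3 of 7) to 9.21 to 10.9, 5.35 to 9.25 and 8.14 to 11.2 CPM. Of the markers of these other cell types that were not tested, Cldn5, Epcam, Adgre1 and Cd3e had 0 counts in every library, and the others had at most 1 to 39 counts in a library, among them Cdh5 with 16, Emcn with 12, Pecam1 with 10, Krt5 with 39, Krt14 with 16, Ptprc with 6 and Itgam with 5. Tek, an endothelial receptor, was lower on col1-ACLP+SB than on col1-ACLP (log2 fold change -0.86, adjusted p = 0.0116 by edgeR), and the macrophage marker Cd68 was lower on col1-ACLP than on col1 (-0.49, adjusted p = 0.0284). The part of these low levels in the collagen VIII values was not tested.

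Col8a1, the gene of the α1(VIII) chain, was at a low level on collagen alone, with 6.97, 6.62, 5.49 and 4.60 CPM in the 4 col1 libraries. On col1-ACLP the 4 libraries had 51.5, 56.0, 54.8 and 62.4 CPM. Every col1-ACLP library lay far above every col1 library, the lowest of the former being 7.39 times the highest of the latter. With SB431542 on the same matrix the levels were 34.3, 33.8, 39.4 and 34.2 CPM, below all col1-ACLP libraries and above all col1 libraries, so that the 3 groups did not overlap in any pair. The group means were 5.92 ± 1.08, 56.2 ± 4.54 and 35.5 ± 2.65 CPM (SD, n = 4), in the order col1, col1-ACLP, col1-ACLP+SB. These levels rested on 181 to 267, 1640 to 2024 and 1008 to 2043 counts per library in that order, which gives a counting error of 2.21% to 7.43% of a library's value. The reads carry no molecular identifiers, so that error covers counting alone, and the coefficient of variation between libraries of a group was larger, at 18.3%, 8.08% and 7.47%.

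**Figure D1:**
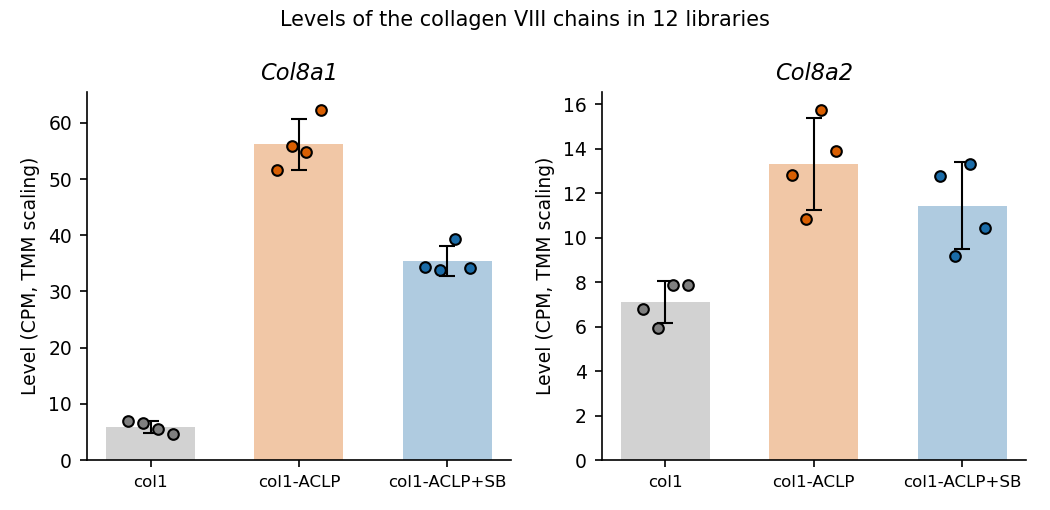
Levels of Col8a1 and Col8a2 in CPM (counts scaled to library size with TMM factors) in the 12 libraries, with bars at the group mean, error bars of 1 SD and 1 point per library. Col8a1 parts the 3 groups without overlap (5.92, 56.2 and 35.5 CPM on average), while Col8a2 on col1-ACLP and col1-ACLP+SB overlaps and lies above col1 in both.

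The log2 fold change of Col8a1 was 3.25 (SE 0.109) between col1-ACLP and col1, a 9.49-fold higher level, and 2.59 (SE 0.108), or 6.00-fold, between col1-ACLP+SB and col1. Over all tested genes the medians of these contrasts were -0.0099 and 0.0046, and all 4 libraries of the ACLP group lay above all 4 of col1 in 10.9% of genes in the former and 6.7% in the latter. Among the 12957 tested genes with a mean of at least 1 CPM, the increase of Col8a1 was the largest in both contrasts, which is the pattern it was picked for. The next in size between col1-ACLP and col1, among the same genes, were ENSMUSG00000120268 at a log2 fold change of 2.73, the iron exporter Slc40a1 at 2.56, the matrix link protein Hapln1 at 2.48, the cysteine-synthesis enzyme Cth at 2.46 and the tendon transcription factor Scx at 2.27. Without a minimum on the mean, 8 genes had a larger fitted value than Col8a1, from 3.25 to 7.00, all of them with a mean under 1 CPM and standard errors from 0.649 to 1.42.

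Between col1-ACLP+SB and col1-ACLP, Col8a1 was lower by a log2 fold change of -0.66 (SE 0.0955), or 0.632-fold. All 4 libraries with the inhibitor lay below all 4 without it, as in 4.52% of tested genes, and the value held the place 61 from the lowest among the 12957 genes. With SB431542 the cells thus had 63.1% of the col1-ACLP level of Col8a1, and 58.8% of the rise above col1 in CPM (79.6% on the log2 scale). The contrasts with col1 share the col1 libraries and so are not independent of each other.

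Col8a2, the gene of the α2(VIII) chain, had 6.79, 5.93, 7.89 and 7.86 CPM on col1. On col1-ACLP it had 12.8, 10.8, 15.8 and 13.9 CPM, each above every col1 library, as in 10.9% of tested genes. With SB431542 the values were 12.8, 9.20, 13.3 and 10.5 CPM, all above col1, as in 6.7% of tested genes. Of these values, 2 lay below the lowest col1-ACLP library and 2 within the range of that group. Group means were 7.12 ± 0.942, 13.3 ± 2.06 and 11.4 ± 1.95 CPM (SD, n = 4). The log2 fold change was 0.90 (SE 0.148), or 1.87-fold, between col1-ACLP and col1 and 0.69 (SE 0.148), or 1.61-fold, between col1-ACLP+SB and col1, at places 182 and 243 of the 12957 genes. Between col1-ACLP+SB and col1-ACLP it was -0.21 (SE 0.145), and -0.12 without col1-ACLP replicate 3 or without col1-ACLP+SB replicate 2. Col8a2 with the inhibitor was at 85.9% of its col1-ACLP level, with 69.7% of its rise in CPM and 76.3% on the log2 scale. Both chains were thus higher on ACLP with and without the inhibitor, Col8a1 by the larger factor.

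Set against gene length, the chains changed places. Levels of different genes were compared as FPKM, here CPM per 1000 bases of the gene length in the table (7833 bases for Col8a1, 4489 for Col8a2). Col8a1 averaged 0.756 ± 0.138, 7.17 ± 0.58 and 4.53 ± 0.338 FPKM in the order col1, col1-ACLP, col1-ACLP+SB, and Col8a2 averaged 1.59 ± 0.210, 2.97 ± 0.459 and 2.55 ± 0.434 FPKM (SD, n = 4). The ratio of Col8a1 to Col8a2 was 0.589, 0.640, 0.399 and 0.336 in the col1 libraries, all under 1. It was 2.31, 2.96, 1.99 and 2.57 on col1-ACLP and 1.54, 2.11, 1.69 and 1.88 on col1-ACLP+SB, all over 1. Col8a1 thus made up 32.4 ± 6.66%, 70.8 ± 3.46% and 64.1 ± 3.10% of the summed FPKM of both chains in that order, while that sum went from 2.34 ± 0.127 to 10.1 ± 0.778 and 7.08 ± 0.713 FPKM (SD, n = 4). The col1 ratios did not overlap those of either ACLP group, whereas the ratios of the ACLP groups with and without SB431542 overlapped. The ratio is made of the same values as the fold changes, so its shift restates the larger rise of Col8a1, the pattern that gene was picked for. How many other pairs of genes part the groups in this way was not counted.

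**Figure D2:**
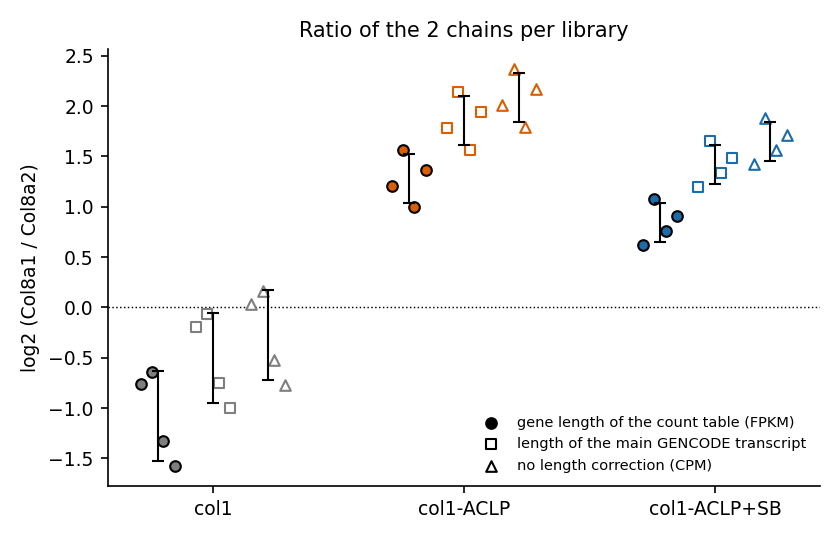
Log2 of the ratio of Col8a1 to Col8a2 in each library under 3 corrections for length (filled circles, gene length of the count table; open squares, length of the main GENCODE transcript; open triangles, no correction), with error bars of 1 SD around the mean. Under each correction the col1 libraries lie below those of both ACLP groups, and the col1 mean lies below 0. Without a correction, col1 replicates 1 and 2 lie above 0 (0.038 and 0.158).

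The size of the ratio rests on the length used, because the table's length for Col8a1 is above the 5108 bases of its main transcript (4359 for Col8a2). With the lengths of the main transcripts, a choice made after the data were seen, the mean ratios were 0.731, 3.66 and 2.69 in the order col1, col1-ACLP, col1-ACLP+SB, and the col1 libraries ran from 0.500 to 0.952. Without any length correction they were 0.856, 4.29 and 3.15, and 2 of the 4 col1 libraries exceeded 1. The change between groups does not depend on length, since length multiplies every library alike. The log2 ratio was higher on col1-ACLP than on col1 (means of 1.28 ± 0.242 and -1.08 ± 0.445, SD, n = 4).

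Both members stayed low-level collagens in these cells. The places and shares that follow rest on the gene lengths of the table, and a shorter length for Col8a1, such as that of its main transcript, would raise its level. Among the 36 tested collagen chain genes ordered by FPKM, Col8a1 was at place 27 on col1, between Col10a1 (0.767 FPKM) and Col9a2 (0.481), at place 21 on col1-ACLP, between Col18a1 (9.96) and Col28a1 (5.89), and at place 22 on col1-ACLP+SB. Col8a2 was at place 24 on col1, between Col9a1 (2.67 FPKM) and Col15a1 (1.26), and at place 25 in both ACLP groups, between Col9a1 and Col10a1. Of the summed FPKM of all collagen chains, Col8a1 held 0.0113%, 0.0833% and 0.0573% and Col8a2 0.0236%, 0.0345% and 0.0323%, in the order col1, col1-ACLP, col1-ACLP+SB. The 0.767 FPKM of Col10a1 and the 0.756 ± 0.138 (SD, n = 4) of Col8a1 on col1 differed by less than the spread between libraries at these lengths.

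The other collagen chains were not used to pick the members and were tested (quasi-likelihood test of edgeR, p-values adjusted over all genes). Of 42 listed chains, 34 were tested. Between col1-ACLP and col1, 14 were higher and 6 lower at an adjusted p under 0.05, against 9.52% and 8.41% of all tested genes, and 14 did not pass. With a log2 fold change beyond 0.58 as well, 9 were higher and 1 lower, against 2.61% and 2.36% of all genes. The median log2 fold change of the 34 chains was 0.17. Between col1-ACLP+SB and col1, 12 were higher and 4 lower (4.6% and 4.54% of all genes), of which 6 and 1 were beyond 0.58 (1.27% and 1.01% of all genes). Between col1-ACLP+SB and col1-ACLP, 2 were higher and 7 lower (0.571% and 0.905% of all genes), none of them beyond 0.58 in edgeR or DESeq2 (0.085% and 0.0425% of all genes in edgeR), while 7 and 10 had an unadjusted p under 0.05.

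Col10a1, the chain of collagen X, was among those that rose. Its level was 2.40 ± 0.739, 5.26 ± 0.748 and 4.26 ± 1.29 CPM in the same order of groups (SD, n = 4), with log2 fold changes against col1 of 1.13 (SE 0.246, adjusted p = 0.00152 by edgeR) and 0.82 (SE 0.246, adjusted p = 0.0344). Col10a1 lies within Nt5dc1 on the opposite strand, whose log2 fold change on col1-ACLP was 0.31, and the strand setting of the counting is not given. The adjusted p of Col10a1 on col1-ACLP+SB rose to between 0.0968 and 0.159 when 1 of col1 replicates 1 and 3 or col1-ACLP+SB replicates 1 and 4 was left out. The basement membrane network chains Col4a1, Col4a2 and Col4a5 were higher on col1-ACLP by log2 fold changes of 0.14, 0.26 and 0.20, and only Col4a2 also passed on col1-ACLP+SB (0.18). For the scarcer Col4a3, Col4a4 and Col4a6 the log2 fold changes on col1-ACLP were -0.40, 0.69 and -0.21 with standard errors from 0.700 to 0.821, and none passed.

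Of the fibrillar chains, which build the banded fibers of the interstitial matrix, 6 of 10 tested were called higher on col1-ACLP, against 2.61% of all tested genes. Col2a1, the collagen of cartilage, had the largest change among them, from 911 ± 75.5 to 3177 ± 471 CPM (SD, n = 4), a log2 fold change of 1.80 (SE 0.0758), and stood at 1.43 on col1-ACLP+SB. Col11a1 (1.11 and 0.77), Col5a1 (0.93 and 0.62) and Col5a2 (0.86 and 0.55), which control fibril nucleation and diameter, and Col1a1 (0.82 and 0.63) and Col1a2 (0.65 and 0.44), the chains of collagen I, followed, each given as the log2 fold change against col1 without and with SB431542. All these 12 values passed the adjusted p, but Col5a2 and Col1a2 on col1-ACLP+SB were under 0.58, and so was Col1a1 (0.55) when col1-ACLP+SB replicate 2 was left out. Col5a3 and Col11a2 were lower on col1-ACLP (-0.25 and -0.19), and Col3a1 and Col27a1 did not pass (0.07 and -0.08).

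Outside the fibrillar and network classes, Col12a1, which decorates fibrils, was higher on col1-ACLP by a log2 fold change of 0.85 and on col1-ACLP+SB by 0.47. Col7a1, the anchoring-fibril chain, was higher by 0.66 (adjusted p = 0.0308 by edgeR) and 0.72 (adjusted p = 0.0307), and both calls were lost without col1 replicate 1, with adjusted p of 0.0514 and 0.0550, and without col1 replicate 4, with 0.109 and 0.107. The former was also lost without col1-ACLP replicate 4 (adjusted p = 0.160), and the latter without any of col1-ACLP+SB replicates 1, 2 and 3 (adjusted p from 0.0662 to 0.0777). Col18a1, a basement membrane collagen whose end fragment is endostatin, was the only chain called lower, from 169 ± 19.6 CPM on col1 to 70.0 ± 2.28 with ACLP and 98.7 ± 7.34 with ACLP and SB431542 (SD, n = 4), with log2 fold changes of -1.27 and -0.78. It overlaps Slc19a1 on the opposite strand, whose own log2 fold changes were 0.0065 and 0.060. The beaded-filament chains Col6a1 and Col6a2 were lower on col1-ACLP by -0.42 and -0.45, while Col6a3 was at -0.01 and did not pass.

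**Figure D3:**
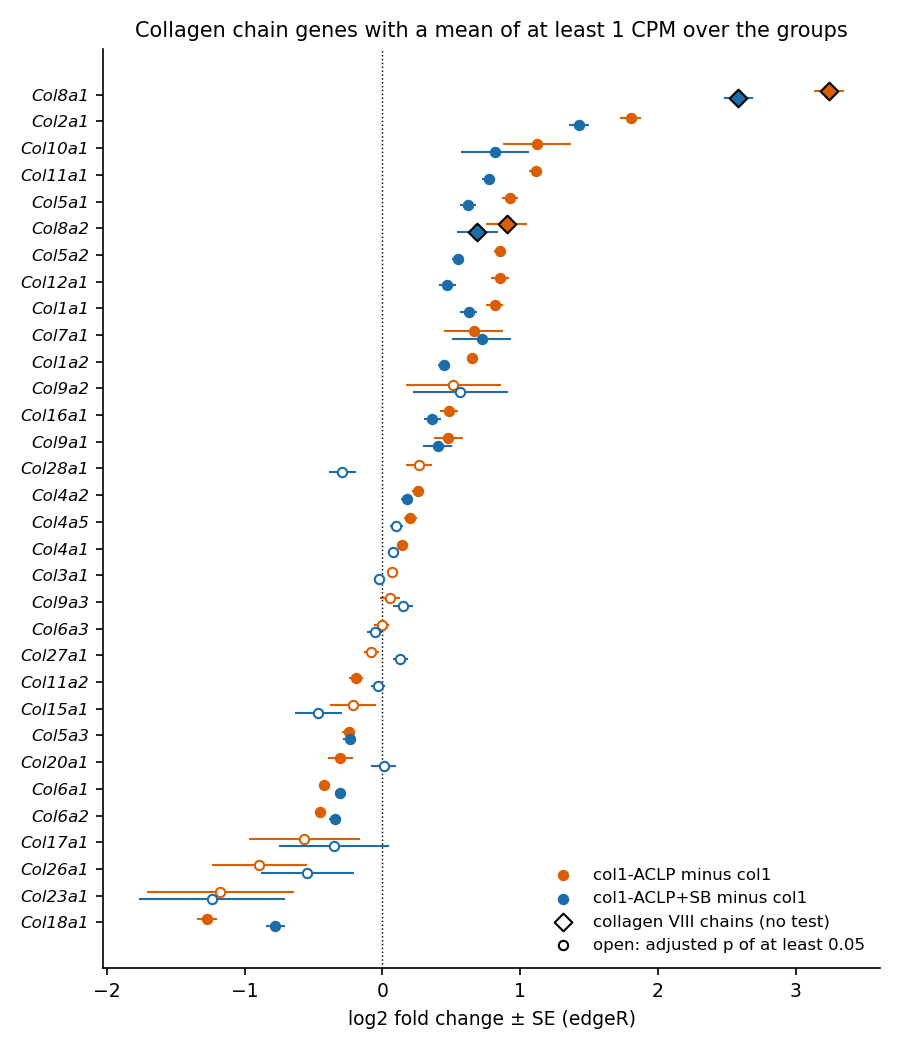
Log2 fold change (edgeR, error bars of 1 SE) of collagen chain genes on col1-ACLP (orange) and col1-ACLP+SB (blue) against col1, ordered by the former, with filled points at an adjusted p under 0.05 and the collagen VIII chains, which were not tested, as diamonds. Col8a1 stands at 3.25 and 2.59, beyond Col2a1 at 1.80 and 1.43, and Col8a2 at 0.90 and 0.69 lies among Col5a1 and Col5a2. The 4 tested chains with a mean under 1 CPM are not drawn. Among them is Col19a1, at 0.0928 CPM on col1 and 0.520 on col1-ACLP, with a fitted value of 2.45 (SE 0.884, adjusted p = 0.0566 by edgeR).

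With SB431542, most of the chains that differed from col1-ACLP were lower. The 7 lower chains were Col28a1 (log2 fold change -0.55), Col12a1 (-0.38), Col2a1 (-0.37), Col11a1 (-0.34), Col5a1 (-0.30), Col5a2 (-0.30) and Col1a2 (-0.21), beside the -0.66 of Col8a1 and the -0.21 of Col8a2, which were not tested. All of the 7 but Col28a1 had been called higher on col1-ACLP, in a contrast that shares the col1-ACLP libraries. The 2 higher chains were Col18a1 (0.50), which had been lower on col1-ACLP, and Col27a1 (0.21). Col28a1 passed 0.58 as well when col1-ACLP replicate 2 or 3 or col1-ACLP+SB replicate 4 was left out (-0.58, -0.63 and -0.59).

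Of 27 listed genes whose proteins share the C1q-like domain with collagen VIII, 10 were tested, and 2 were higher and 1 lower on col1-ACLP (against 9.52% and 8.41% of all tested genes). Emilin1, an elastic-fiber glycoprotein, had a log2 fold change of 0.47 and Caprin2 one of -0.57. C1qtnf3, a secreted C1q and TNF related protein, rose from 1.18 ± 0.745 to 3.43 ± 0.802 CPM (SD, n = 4; log2 fold change 1.54, adjusted p = 0.00486 by edgeR) and had 1.26 ± 0.346 CPM with SB431542. On col1-ACLP+SB against col1, Emilin1 was higher (0.42) and Emilin2 lower (-0.48), 1 of 10 each way against 4.6% and 4.54% of all tested genes. Between the ACLP groups, where 0.571% and 0.905% of all tested genes passed, 0 of the 10 passed in edgeR (4 at an unadjusted p under 0.05) and DESeq2 passed C1qtnf3 as lower.

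Genes listed for the hydroxylation, glycosylation and folding of collagen chains in the endoplasmic reticulum, not all of them enzymes, were all tested, 20 of 20. On col1-ACLP 14 were higher and 0 lower in edgeR and in DESeq2 (14 and 1 at an unadjusted p under 0.05), against 9.52% and 8.41% of all tested genes. Of these, 5 were beyond 0.58, the scarce Colgalt2 among them, against 2.61% of all genes. The median log2 fold change of all 20 was 0.30, against -0.0099 over all tested genes. Colgalt2, a collagen galactosyltransferase, had the largest fitted value, from 0.0116 ± 0.0232 to 0.364 ± 0.311 CPM (SD, n = 4), a level too low for its fold change to be read. P4ha1, the catalytic subunit of prolyl 4-hydroxylase, went from 214 ± 11.6 to 390 ± 21.7 CPM and to 362 ± 3.16 CPM with SB431542 (SD, n = 4), with log2 fold changes against col1 of 0.87 and 0.76. The lysyl hydroxylase Plod1 followed at 0.65 and 0.55. On col1-ACLP+SB 11 were higher and 0 lower in edgeR (4.6% and 4.54% of all tested genes), 2 beyond 0.58 (1.27%), against 12 and 0 in DESeq2 and 14 and 1 at an unadjusted p under 0.05. Between the ACLP groups (0.571% and 0.905% of all tested genes) 0 passed in edgeR, while 5 were lower at an unadjusted p under 0.05 and DESeq2 passed P4hb and P4ha3 as lower.

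The genes that process and crosslink collagen outside the cell included 4 higher and 3 lower of 12 tested on col1-ACLP, against 9.52% and 8.41% of all tested genes. Adamts14, a procollagen N-proteinase, fell from 37.2 ± 1.78 to 10.8 ± 1.74 CPM (SD, n = 4; log2 fold change -1.78), and was at -1.38 with SB431542. Lox, the crosslinking lysyl oxidase, rose from 704 ± 22.2 to 2093 ± 168 CPM (SD, n = 4), a log2 fold change of 1.57 without and 1.11 with SB431542. Loxl4, its relative, stood at 1.32 and 0.98. Between the ACLP groups, where 0.571% and 0.905% of all tested genes passed, Lox (-0.46) and Loxl4 (-0.35) were lower and Bmp1, the procollagen C-proteinase, was higher (0.25).

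Among receptors that bind collagen, 7 of 10 were tested, and 3 were higher and 2 lower on col1-ACLP, against 9.52% and 8.41% of all tested genes. Itga11, the integrin α11 subunit of the fibrillar collagen receptor, was scarce and rose from 0.883 ± 0.483 to 2.45 ± 0.797 CPM (SD, n = 4; log2 fold change 1.48, adjusted p = 0.00877 by edgeR). Itga1, the integrin α1 subunit, was higher by 0.46 and Mrc2, an endocytic collagen receptor, lower by -0.27. With SB431542, Itga11 and Itga1 had log2 fold changes of 1.02 and 0.22 against col1 and did not pass, while Mrc2 and Ddr2 were lower, 2 of 7 against 4.54% of all tested genes. Itga2, the integrin α2 subunit, had at most 10 counts in a library and was not tested.

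Of the proteases and inhibitors of collagen breakdown, 10 of 15 were tested, with 1 higher and 2 lower on col1-ACLP (against 9.52% and 8.41% of all tested genes) and also with SB431542 (4.6% and 4.54%). Timp3, a matrix-bound protease inhibitor, was higher (0.96 and 0.53), and Mmp14, a membrane-bound collagenase, and Timp2 were lower (-0.49 and -0.35, -0.24 and -0.21). Between the ACLP groups Timp3 was lower (-0.43), 1 of 10 against 0.905% of all tested genes.

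Smooth muscle contractile genes, listed because vascular smooth muscle is a known source of collagen VIII, moved in both directions. Of 12 tested, 4 were higher and 3 lower on col1-ACLP (against 9.52% and 8.41% of all tested genes), with a median log2 fold change of -0.16. Actg2 and Acta2, the smooth muscle actins, were higher by 1.62 and 1.18, and the tropomyosin Tpm2 was lower by -0.91. On col1-ACLP+SB 4 were higher and 2 lower (4.6% and 4.54% of all tested genes), and between the ACLP groups, where 0.571% and 0.905% of all tested genes passed, 1 was higher (Tpm2, 0.38) and 2 lower (Acta2 and Cald1, -0.25 and -0.15). Tagln had at most 17 counts in a library and Myocd 0, and neither was tested.

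Genes that feed back on SMAD signaling, not all of them tied to ALK5 alone, were followed because SB431542 blocks that kinase. All 9 were tested, and 6 were higher and 0 lower on col1-ACLP in edgeR and DESeq2 (6 and 1 at an unadjusted p under 0.05), against 9.52% and 8.41% of all tested genes. Pmepa1, a membrane adaptor that binds SMADs, went from 25.4 ± 2.41 to 92.9 ± 10.2 CPM and to 70.4 ± 6.14 CPM with SB431542 (SD, n = 4), with log2 fold changes of 1.87 and 1.47 against col1 and of -0.40 between the ACLP groups (adjusted p = 0.00841 by edgeR), where it was the 1 of 9 to pass as lower, against 0.905% of all tested genes. The SMAD corepressor Skil was higher by 1.02 and 0.80 and the inhibitory Smad7 by 0.60 and 0.44. On col1-ACLP+SB against col1, where 4.6% and 4.54% of all tested genes passed, 4 were higher and 2 lower (the ubiquitin ligases Smurf2 and Smurf1, -0.25 and -0.16). Pmepa1 and Col8a1 both kept a level above col1 in the presence of the inhibitor, at 70.4 ± 6.14 against 25.4 ± 2.41 CPM and at 35.5 ± 2.65 against 5.92 ± 1.08 CPM (SD, n = 4).

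The neighbors on the chromosome passed the test at about the share of all tested genes, of which 9.52% were higher and 8.41% lower on col1-ACLP. Counting genes with any base within 500 kb of either end of Col8a1 (their starts can lie farther off), 7 other genes were tested. Their log2 fold changes on col1-ACLP ran from -0.24 to 0.66, with a median of -0.0012. The 0.66 was that of the scarce Tmem30c (0.195 CPM on col1 and 0.320 on col1-ACLP, SE 1.04), which did not pass. The 1 that passed the adjusted p, Tomm70a, a mitochondrial import receptor, stood at 0.16 (adjusted p = 0.0451 by edgeR), and none was beyond 0.58 with it. By the same measure, near Col8a2 21 were tested, with a median of 0.023, and 3 passed. These were Clspn, a DNA replication checkpoint adaptor, at 0.92 (adjusted p = 0.0496), AU040320 at 0.19 and the neuronal protein Ncdn at -0.20. On col1-ACLP+SB against col1 and between the ACLP groups 0 neighbors passed in edgeR or DESeq2, with 6 and 2 at an unadjusted p under 0.05, where 4.6% and 0.571% of all tested genes were higher and 4.54% and 0.905% lower.

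**Figure D4:**
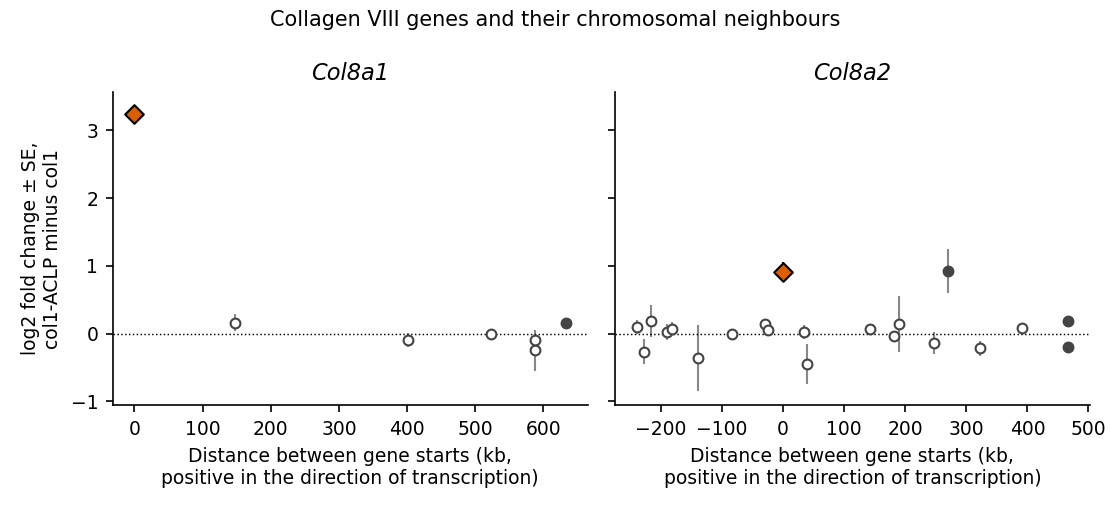
Log2 fold change between col1-ACLP and col1 (edgeR, error bars of 1 SE) of the collagen VIII genes (diamonds, not tested) and of the tested genes with any base within 500 kb of either end of the gene and with a mean of at least 1 CPM (circles, filled at an adjusted p under 0.05), against the distance in kb between gene starts. The Col8a1 diamond at 3.25 stands alone, while near Col8a2 (0.90) the gene Clspn at 270 kb has a value of 0.92.

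Likeness of pattern was measured as Pearson's r of log2 CPM over the 12 libraries for the 12957 genes with a mean of at least 1 CPM. The libraries fall into 3 groups, so a high r mostly says that a gene had the same order of group levels. The 8 genes most like Col8a1 had r from 0.991 to 0.992: Rflnb, a filamin-binding protein, Prelp, a small proteoglycan, the glycolytic enzymes Eno1 and Pgam1, the cytoskeletal adaptor Sorbs2, Fbln5, an elastic-fiber protein, Loxl4 and P4ha1. Their log2 fold changes on col1-ACLP ran from 0.73 for Pgam1 to 1.82 for Rflnb, so none came near the 3.25 of Col8a1 in size. Eno1 has a near-identical copy in the table, Eno1b, and reads may be split between the copies. In all, 382 genes had r above 0.9, and the lowest value was the -0.991 of Dcn (decorin), a small proteoglycan.

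The genes most like Col8a2 were less close, with r from 0.943 to 0.973: the pyruvate dehydrogenase kinase Pdk3, the RNA-binding protein Hdlbp, the zinc and iron transporter Slc39a14, Ccdc47, the kinase Melk, the rhomboid protease Rhbdd1, the nucleotide hydrolase Dnph1 and 1110051M20Rik. Ccdc47 overlaps Strada and 1110051M20Rik overlaps Arfgap2. Their log2 fold changes on col1-ACLP ran from 0.22 for Hdlbp to 0.81 for Dnph1, and 85 genes had r above 0.9. Between the chains themselves r was 0.876, which put Col8a2 at place 477 among the genes like Col8a1 and Col8a1 at place 181 among those like Col8a2. The named genes depend on the measure: ordered by Spearman's rho, 1 of the 8 for Col8a1 and 4 of the 8 for Col8a2 remained, and without col1 replicate 2, 6 and 4 did.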

How the data were processed

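Poly(A) RNA of 12 libraries was sequenced as paired-end reads and mapped by the authors to GRCm39 with HISAT2, as the study's methods state (the submitters' processing notes name mm10, but the coordinates in the table are those of GRCm39). They deposited raw counts per gene, which the authors had not normalized. The counting tool and its strand setting are not given in the sources used here. CPM and FPKM were computed here from those counts, with TMM factors and the table's gene lengths.

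Tests used edgeR 4.0.16 in R 4.3.3 (filterByExpr, TMM, glmQLFit and glmQLFTest, group as the only term, all 12 libraries) and Benjamini-Hochberg adjustment over 16465 genes. Called genes had an adjusted p under 0.05 and a log2 fold change beyond 0.58, the thresholds of the study's methods. The edgeR standard errors were worked back from the test, as the absolute log2 fold change over the square root of its F statistic. This holds also for Col8a1 and Col8a2, whose p-values are not given. The common dispersion had a square root of 0.153. Log2 CPM used a prior count of 2. Promoter windows and transcripts came from GENCODE on GRCm39, and 250 and 222 bases of the Col8a1 and Col8a2 windows are also in the RefSeq promoters (GRCm38.p6). DESeq2 1.42.0 was an alternative, with RLE factors, library size alone, 2 other filters, pairs of groups, a replicate block and each library left out.

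Col8a1, Col8a2 and the gene lists were chosen with earlier results of these data known. Named genes were the members, collagen chains called in any contrast, the 3 largest changes of each other list among those past the adjusted p, the 8 most alike genes and called neighbors. Further genes, and all those given for contrasts with SB431542, were named after their values were seen. Labels name the libraries by group and number, so p-values measure the spread between these libraries.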

Additional observations from a re-analysis of the deposited data

Results flagged for a closer look

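Col8a1 on col1-ACLP+SB replicate 3 stood apart from the other libraries of its group, at 39.4 CPM against 33.8 to 34.3 CPM. The gap to the nearest library was 0.908 of the range of the group, above the 95% critical value of Dixon's test for 4 samples. Chance flags about 1 in 20 groups, and 12 groups of values were looked at. That library also had the highest total of the group, 52201922 counts against 29995224 to 34895588, whose part in the value was not tested. It still lay below the lowest col1-ACLP library (51.5 CPM).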

How the results depend on the processing

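The fold changes of Col8a1 and Col8a2 kept their direction and moved by less than 1 SD between libraries in all 19 alternatives of each of the 3 contrasts. For Col8a1 they ran from 3.14 to 3.34, from 2.48 to 2.68 and from -0.72 to -0.61, and for Col8a2 from 0.81 to 0.99, from 0.61 to 0.78 and from -0.30 to -0.12, in the order col1-ACLP against col1, col1-ACLP+SB against col1 and col1-ACLP+SB against col1-ACLP. The last of these for Col8a2 moved by over 1.5 times, to -0.12, without col1-ACLP replicate 3 or col1-ACLP+SB replicate 2. With CPM in place of FPKM the log2 ratio of Col8a1 to Col8a2 became -0.27, 2.09 and 1.65 from -1.08, 1.28 and 0.84, since a constant for length is left out, and with the lengths of the main transcripts -0.50, 1.86 and 1.42.

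Counts of calls moved by over 1.5 times under some settings, and the cause was not tested except where fewer criteria applied. With the adjusted p alone, 1568 genes were higher and 1385 lower between col1-ACLP and col1 (430 and 389 with the fold change), 757 and 747 between col1-ACLP+SB and col1 (209 and 167), and 94 and 149 between the ACLP groups (14 and 7). Collagen chains by the same rule were 14 and 6, 12 and 4, and 2 and 7. Between the ACLP groups the calls became 26 higher and 20 lower without a filter on low counts, 35 and 16 with DESeq2, and 11 lower in a fit of these groups alone. DESeq2 also called 2 collagen chains lower on col1-ACLP against 1. It called 10 chains higher there against 9, with the scarce Col19a1 added (log2 fold change 2.49, adjusted p = 0.0212 by DESeq2). With a library left out, calls between the ACLP groups ran from 4 to 17 higher and from 4 to 12 lower. The fewest came without col1-ACLP replicate 4 or col1-ACLP+SB replicate 4 and the most without col1 replicate 2. The 17 higher also came without col1-ACLP+SB replicate 3. Collagen chains called lower ran from 1 to 2 on col1-ACLP, from 1 to 2 on col1-ACLP+SB and from 0 to 1 between the ACLP groups, where Col26a1 (without col1 replicate 4 or col1-ACLP replicate 2), Col23a1 (without replicate 1 of either ACLP group) and Col28a1 were added.

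Same-numbered libraries did not pair: correlations of their deviations from the group means ran from -0.037 to 0.036. With a replicate block, 424 genes were higher and 361 lower between col1-ACLP and col1, 2 collagen chains were lower in that contrast, and the fold changes of Col8a1 and Col8a2 were 3.25 and 0.90. At 181 to 338 counts in the col1 libraries, counting error does not limit the members' contrasts, but chains under 1 CPM could change unseen.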

Other observations

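Col8a2 was lowest in replicate 2 of each group (5.93, 10.8 and 9.20 CPM) and highest in replicate 3 (7.89, 15.8 and 13.3 CPM). Over all genes the libraries with the same number did not deviate together, so the numbers are not taken as pairs. Col8a1 had no such order, its lowest libraries being col1 replicate 4, col1-ACLP replicate 1 and col1-ACLP+SB replicate 2.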
